A study of Mus musculus with 15 samples.

Results

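Dendritic cells (DC) were grown from the bone marrow of female NOD mice, a strain prone to autoimmune diabetes, and the later part of their response to a microbial stimulus, between 6 and 20 h, was measured on arrays. The 2 arrays of GM DC at 20 h were compared with the 2 arrays of GM DC at 6 h, so that 4 of the 15 arrays of the series carry the comparison, and all 12422 probe sets other than the manufacturer's controls were included. GM DC came from marrow of mice aged 6 to 8 weeks kept for 4 days in 1 ng/ml GM-CSF, a growth factor of myeloid cells, and were purified on a 16% metrizamide gradient. At both times the cells had been cultured with 10 µg/ml lipopolysaccharide (LPS), a bacterial ligand of the receptor Tlr4, and 50 ng/ml interferon-γ. The 3 GM arrays at 0 h are described beside the others without a test. GM4 DC, which had also received 1 ng/ml interleukin-4 and were purified on a 14.5% gradient, supplied 2 arrays at 20 h and 3 at 6 h for a test of whether the late change differed between the cultures, plus 3 arrays at 0 h that enter the estimate of the spread. Each array held RNA of a whole culture, so fewer cells of a type and less RNA per cell cannot be told apart, and marrow cultures with GM-CSF are known to hold macrophages and granulocytes beside DC. The labels call the replicates biological, do not say which animals they came from, and remark that the RNA was not good in every sample. For GM4 0 h replicate 1 they give no dose of GM-CSF or interleukin-4 and no gradient. The source names of the GM4 0 h arrays mention the stimulation, and these arrays were kept as 0 h.

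A DC that meets LPS and interferon-γ changes its programme in waves. An early wave driven by NF-κB and by interferon-regulated factors makes cytokines, chemokines and costimulatory proteins, with which the cell attracts and instructs T cells. Later, inhibitors of the same pathways, arginase and other repair-associated enzymes, and changes in metabolism and growth are known to follow. Most of the transcripts of the early wave are short-lived, and interferon-induced genes can outlast them.

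Values are signals, the probe set intensity that the authors deposited, on a scale with a trimmed mean near 150 on every array. The median signal of the 4 arrays lay between 40.1 and 45.4, and 29.7% to 33.5% of probe sets had a signal below 16, where values are mostly noise. Log2 values correlated with r of 0.980 between the 20 h arrays, 0.973 between the 6 h arrays and 0.934 to 0.945 across the times, so the replicates stood closer to each other than to the other time. For the β-actin controls, signal at the 3′ end over that at the 5′ end, a measure of RNA integrity and labelling, was 2.15 and 2.26 at 20 h, against 1.73 and 1.43 at 6 h, and for Gapdh 1.51 and 1.55 at 20 h, against 1.63 and 1.85 at 6 h. The β-actin ratio was thus higher at 20 h and the Gapdh ratio lower, so their mean holds only part of either shift. With the mean of both log2 ratios as a covariate, 1870 of the 2044 calls remained. Neither ratio was used as a covariate alone. The part of RNA quality in single genes was not tested otherwise. Changes below are differences of log2(signal + 16), 20 h minus 6 h, which understate the change of dim genes, with limma's standard error after ±. A gene passed, and is said to have risen or fallen, at a Benjamini-Hochberg adjusted p under 0.05 over all probe sets. Unless stated otherwise, a named change in GM DC also passed under every one of up to 14 other settings that gave it a value. These settings include the omission of each of the 4 arrays. Changes of single genes in GM4 DC were not followed over other settings.

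At 20 h, 1081 probe sets were higher than at 6 h and 963 were lower, together 16.5% of those tested, with 8.7% higher and 7.75% lower. Reduced to 1 probe set per gene, 870 of 8251 genes rose (10.5%) and 711 fell (8.62%), and 384 of the rises and 360 of the falls exceeded 1 on the log2 scale. Counts of list members below are to be read beside these shares of all genes. The lists were chosen with earlier results of these data known, and no list was tested as a set. The 20 h and 6 h arrays did not overlap for 54.1% of all genes, so non-overlap alone says little with 2 arrays against 2. Without GM 20 h replicate 2, 640 probe sets rose and 602 fell, the lowest counts when 1 array was left out.

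**Figure D1:**
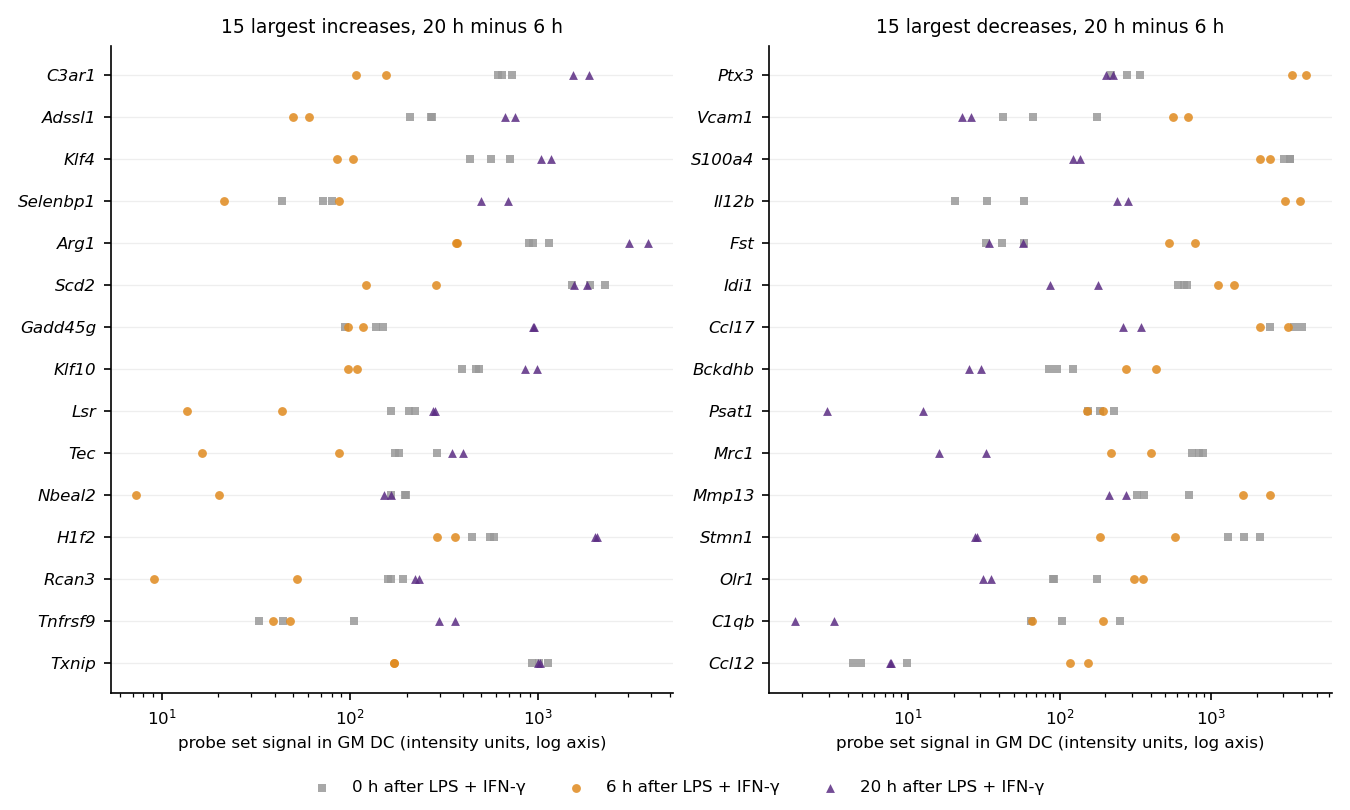
Signal of each GM array (horizontal log axis, intensity units) at 0 h (grey squares), 6 h (orange circles) and 20 h (purple triangles) for the 15 largest increases (left) and the 15 largest decreases (right) from 6 to 20 h. The genes were chosen so that purple and orange marks are separate; the grey marks reach or pass the purple ones for Scd2, Txnip and Nbeal2 among the increases and for Ptx3, Il12b, Fst and Ccl12 among the decreases.

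The largest rise was that of C3ar1, the receptor for the complement fragment C3a, whose probe set 103707_at read 1863 and 1524 at 20 h, against 108 and 155 at 6 h. Genes ranked by size were chosen among those whose arrays did not overlap between the times. The change of C3ar1 was 3.55 ± 0.24 (adjusted p = 1.02e-06). C3ar1 had read 641, 723 and 611 at 0 h, so its 6 h signal was the low point of the course. The same dip was seen for Klf4 and Klf10, zinc-finger transcription factors. Klf4 read 1034 and 1165 at 20 h, against 85.8 and 104 at 6 h, with a change of 3.33 ± 0.22. Klf10 read 854 and 981 at 20 h, against 109.5 and 97.3 at 6 h, with a change of 2.97 ± 0.17. At 0 h Klf4 averaged 569 and Klf10 449.6, between the values of the later times. Adssl1, an enzyme of purine nucleotide synthesis, rose by 3.36, Scd2, which desaturates fatty acids, by 3.05, and Txnip, which binds thioredoxin and restrains glucose uptake, by 2.45. Scd2 and Txnip thereby came back to their 0 h range, with 1547 and 1809 at 20 h and a 0 h mean of 1887 for Scd2, and 994 and 1021 at 20 h and a 0 h mean of 1024 for Txnip.

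Apart from Nbeal2, the rest of the 15 largest rises stood at 20 h above every 0 h and 6 h array. The same held for C3ar1, Klf4, Klf10 and Adssl1. Arg1, the arginase that splits arginine into ornithine and urea, read 3820.2 and 3047 at 20 h, against 369 and 368 at 6 h, with 0 h arrays at 889, 1137 and 934, and changed by 3.16 ± 0.21. Gadd45g, a stress-response protein, read 953 and 942 at 20 h, against 117 and 97.7 at 6 h and had averaged 127 at 0 h. Selenbp1, which codes for a selenium-binding protein, read 691 and 495 at 20 h, against 87.4 and 21.4 at 6 h, and its 6 h arrays, which differed widely, lay on both sides of the 0 h arrays (mean 65.4). H1f2, a linker histone, rose by 2.58, and Tnfrsf9, a costimulatory receptor of the TNF receptor family, by 2.54. The remaining places among the 15 largest rises were taken by Lsr, a lipoprotein receptor (2.81 ± 0.28), Tec, a cytoplasmic tyrosine kinase (2.75 ± 0.41), Nbeal2, known from platelet granules (2.59 ± 0.34), and Rcan3, a regulator of calcineurin (2.55 ± 0.33). The 6 h signals of these 4 were low and uneven, such as 52.3 and 9.15 for Rcan3, against which 222 and 233 at 20 h stood clear.

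The largest fall was that of Ptx3, a secreted pattern-recognition protein, whose probe set 92731_at read 224 and 203 at 20 h, against 3402 and 4259 at 6 h. The change was -4.06 ± 0.37 (adjusted p = 8.88e-06), and the 20 h arrays overlapped those of 0 h (280.2, 219 and 338). Vcam1, an adhesion protein for leukocytes, read 25.9 and 22.6 at 20 h, against 557 and 705 at 6 h, a change of -4.00 ± 0.39. Fst, which binds and blocks activins, read 34.0 and 57.3 at 20 h, against 526 and 788 at 6 h, and Mmp13, a collagenase, read 272 and 212 at 20 h, against 1631 and 2459.9 at 6 h. Each of these 4 genes had its peak at 6 h and was back near or below its 0 h level at 20 h. A second pattern was a fall below the 0 h level. S100a4, a calcium-binding protein of motile cells, read 123 and 135 at 20 h, against 2107 and 2459 at 6 h, with 3029, 3335 and 3299.8 at 0 h, and changed by -3.98 ± 0.20. Mrc1, the macrophage mannose receptor, read 16.0 and 32.6 at 20 h, against 217 and 403 at 6 h, with 884, 833 and 749 at 0 h. Stmn1, which destabilises microtubules in dividing cells, read 28.5 and 27.6 at 20 h, against 184 and 578 at 6 h, with a 0 h mean of 1687, and its 6 h arrays differed widely. Psat1, an enzyme of serine synthesis, fell to 2.92 and 12.5 at 20 h, against 153 and 194 at 6 h. Idi1, an enzyme of isoprenoid and cholesterol synthesis, fell by 3.17, Bckdhb, a subunit of the branched-chain keto acid dehydrogenase, by 3.04, and Olr1, a receptor for oxidised lipoprotein, by 2.83. C1qb, a chain of complement C1q, read 3.26 and 1.79 at 20 h, against 192 and 65.8 at 6 h, so that both later values were in the noise. The last of the 15 genes, besides Il12b and Ccl17 that are described with their groups, was the chemokine Ccl12, with 7.74 and 7.60 at 20 h, against 117 and 153 at 6 h.

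Several cytokines fell after 6 h. Of 16 measured inflammatory and T cell polarising cytokines 7 fell and 1 rose, against 8.62% and 10.5% of all genes, and their median change was -0.54, against 0.04 for all genes. Tnf, the prototype inflammatory cytokine, read 366 and 459.9 at 20 h, against 1886 and 2955 at 6 h, a change of -2.48 ± 0.35. Il6, a cytokine of the acute phase and of lymphocyte help, read 1662 and 620.4 at 20 h, against 6159 and 4918 at 6 h, a change of -2.42 ± 0.32, and its 20 h arrays differed widely. Il12b, the subunit that interleukin-12 and interleukin-23 share and a driver of Th1 and Th17 responses, read 281 and 241 at 20 h, against 3856 and 3087 at 6 h, a change of -3.65 ± 0.37. Il12a, its partner in interleukin-12, read 52.7 and 39.6 at 20 h, against 192 and 136 at 6 h. These 4 genes had passed the test, and their arrays did not overlap between the times, as for 54.1% of all genes. The 0 h means (77.4 for Tnf, 32.6 for Il6, 37.2 for Il12b and 3.38 for Il12a) were lower still. Il1b, the pyrogenic cytokine, remained bright, with 3723 and 2829 at 20 h, against 9107 and 6140.3 at 6 h. Its change of -1.20 ± 0.31 lost its call after quantile normalization and without GM 6 h replicate 1 or GM 20 h replicate 2 (changes of -1.003 to -0.92 there). Il15, which sustains natural killer and memory T cells, was the member that rose, with 200.0 and 146 at 20 h, against 94.7 and 79.4 at 6 h. The call of Il15 was lost without GM 6 h replicate 2, without GM 20 h replicate 1 (changes of 0.66 to 0.76 there) and in a fit of the 4 arrays alone. Il10, the anti-inflammatory cytokine, did not pass, with 95.8 and 104 at 20 h, against 98.3 and 77.6 at 6 h and 0 h values averaging 4.24. The count of cytokines that fell was 4 without GM 6 h replicate 1.

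Chemokines had a median change of -1.17 over 20 measured genes, of which 11 fell and 1 rose. That median was the lowest of the 31 pathway lists with all 4 arrays. Costimulatory genes were lower without GM 20 h replicate 1 (-1.32, with chemokines at -1.18), as were costimulatory genes (-1.06) and ribosomal proteins (-1.14) without GM 6 h replicate 2 (chemokines -0.93), and ribosomal proteins after the filter on dim probe sets (-1.38, with chemokines at -1.21). Those that fell included ligands of several receptors. Cxcl1, a neutrophil attractant, read 329 and 289 at 20 h, against 1577 and 1492 at 6 h, a change of -2.26 ± 0.21, and Cxcl2, of like function, read 971 and 1233 at 20 h, against 1923 and 3181 at 6 h. The call of Cxcl2 was lost without GM 20 h replicate 1 or GM 6 h replicate 2 (changes of -0.995 to -0.80 there). Ccl4, an attractant of monocytes and T cells, read 246 and 246 at 20 h, against 726 and 1264 at 6 h. Ccl17 and Ccl22 are both ligands of Ccr4 on regulatory and Th2 cells. Ccl17 read 346 and 263 at 20 h, against 2104 and 3235 at 6 h, and Ccl22 read 2102 and 1919 at 20 h, against 7202 and 7492 at 6 h. Ccl17 stood far below its 0 h mean of 3331 at 20 h, whereas the 20 h signal of Ccl22 was nearer to its 0 h mean of 3357. Ccl6 and Ccl9, constitutive chemokines of myeloid cells, also ended under their 0 h means of 815 and 7433, with 46.7 and 103 at 20 h, against 492 and 367 at 6 h for Ccl6 and 2636 and 2720.4 at 20 h, against 9859 and 8315 at 6 h for Ccl9. Cxcl9, the interferon-γ-induced ligand of Cxcr3, fell by 1.06 and still read 2747 and 2061 at 20 h, against 5345 and 4666 at 6 h and 0 h values averaging 3.32. Cxcl10, a ligand of the same receptor, did not pass (1499.8 and 856 at 20 h, against 1251 and 1943 at 6 h). Cxcl14 was the chemokine that rose, with 281 and 219 at 20 h, against 106 and 115 at 6 h and a 0 h mean of 275.

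Promoters of genes of these lists were searched because the genes fell together. The 250 bases before the start site were read from RefSeq sequences of build GRCm38.p6, and 15 of the 18 cytokine and chemokine genes that fell had an entry. The NF-κB-type motif GGGNNTTTCC, on either strand, was found in 4 of these 15 promoters (Il6, Cxcl1, Cxcl2 and Ccl9), in 1.4% of 27025 promoters of the same length, in 2.97% of promoters of genes that fell and in 1.26% of those of genes that rose. None of the 4 held the other motif searched. In the sequences of Il6 and Cxcl1, shown as examples of a cytokine and a chemokine that kept their call in every setting, the capitals mark the matches. The match of Il6 ends 35 bases before the start site. A match is a description of the letters and not a test of binding. Cytokine and chemokine genes that did not fall were not counted apart, so a link of the motif to the fall was not tested.
Il6, chr5:30012864-30013113, plus strand: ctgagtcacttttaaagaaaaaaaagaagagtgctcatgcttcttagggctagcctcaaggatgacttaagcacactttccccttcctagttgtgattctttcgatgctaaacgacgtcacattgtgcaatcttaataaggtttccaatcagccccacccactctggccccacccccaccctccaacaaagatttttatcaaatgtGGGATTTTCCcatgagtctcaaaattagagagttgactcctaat
Cxcl1, chr5:90890995-90891244, plus strand: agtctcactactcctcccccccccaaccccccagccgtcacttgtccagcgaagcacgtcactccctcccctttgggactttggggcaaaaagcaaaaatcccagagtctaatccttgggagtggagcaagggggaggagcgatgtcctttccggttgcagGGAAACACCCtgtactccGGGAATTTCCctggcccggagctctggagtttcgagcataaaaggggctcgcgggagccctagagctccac

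Costimulatory and maturation genes were mostly lower at 20 h. Of 15 measured members 10 fell and 1, Tnfrsf9, rose, and the median change was -1.03. Cd40, through which T cells license DC, read 741 and 612 at 20 h, against 2345 and 2009 at 6 h, a change of -1.67 ± 0.14, with a 0 h mean of 73.0. Fscn1, the actin-bundling protein of DC extensions, read 1552 and 1617 at 20 h, against 5038 and 4493 at 6 h, and Cd48, a ligand of lymphocyte receptors, read 158 and 129 at 20 h, against 291 and 288 at 6 h. Cd83, a surface marker of mature DC, read 1067 and 578 at 20 h, against 2187 and 2178 at 6 h. The call of Cd83 was lost without GM 20 h replicate 2 (change -1.02 there). Ccr7, which guides mature DC to lymph nodes, read 1093 and 610.4 at 20 h, against 2040.2 and 1659.9 at 6 h. The call of Ccr7 was lost in 3 settings, among them the omission of GM 20 h replicate 2 or of GM 6 h replicate 1 (changes of -1.01 to -0.74 there). Both 20 h arrays lay below both 6 h arrays in these 5 genes, which had passed the test, as the arrays did not overlap for 54.1% of all genes. Tnfsf9, the ligand of Tnfrsf9, fell by 1.45 while its receptor rose. The call of Tnfsf9 was lost in 4 settings, 3 of which left out either 20 h array or GM 6 h replicate 2 (changes of -1.45 to -1.43 there). Cd86, a ligand of Cd28, did not pass, with 987 and 543 at 20 h, against 1211 and 944 at 6 h, values that overlap between the times. Without GM 20 h replicate 2, 4 members fell.

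Some genes of antigen presentation passed, to be read beside the 10.5% of all genes that rose and the 8.62% that fell. Of 14 MHC class I and immunoproteasome genes 3 rose and 0 fell, with a median of 0.19, and the count was 1 without GM 6 h replicate 2 or without either 20 h array. H2-M3, a class I molecule for formylated peptides, read 1018 and 998 at 20 h, against 599.9 and 647 at 6 h and kept its call in every setting. Tap2, of the peptide transporter, and Tapbp, which links it to class I, had changes of 0.65 and 0.61. Tap2 lost its call without any one of the 4 arrays (changes of 0.56 to 0.73 there), and Tapbp without GM 6 h replicate 2 or either 20 h array (changes of 0.34 to 0.66 there). B2m, the light chain of class I, did not pass (7191 and 5781 at 20 h, against 9391 and 7017 at 6 h). Of 14 class II genes 2 rose and 1 fell. H2-Oa, which modulates peptide loading, rose by 1.13 and Rfxank, a subunit of the factor that drives class II genes, by 0.94, while Ifi30, a thiol reductase of endosomes, had a change of -0.96. The call of Ifi30 was lost in 5 settings, 3 of which left out either 20 h array or GM 6 h replicate 2 (changes of -1.08 to -0.74 there). The class II chains H2-Aa and H2-Ab1 did not pass, with 3615 and 2483 at 20 h, against 6028 and 4217 at 6 h for H2-Aa and 1161 and 711 at 20 h, against 2287 and 1571 at 6 h for H2-Ab1. As lower at 20 h, H2-Aa passed in 2 other settings and H2-Ab1 in 1, the fit with the replicate block, in which 5 class II genes fell.

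The NF-κB pathway itself was lower at 20 h in part. Of 16 measured members 6 fell and 1 rose, with a median of -0.46, and 2 fell without GM 6 h replicate 1 or without GM 20 h replicate 2. Nfkb2, the precursor of a DNA-binding subunit, read 416 and 429 at 20 h, against 1235 and 973 at 6 h, and Nfkbiz, a nuclear cofactor needed for a set of late cytokine genes, read 349 and 407 at 20 h, against 1129.9 and 1147 at 6 h. Traf2, an adaptor of TNF receptors, rose to 474 and 733 at 20 h, against 319 and 244 at 6 h. The call of Traf2 was lost without GM 20 h replicate 2 or GM 6 h replicate 2 (changes of 0.73 to 0.86 there). Of 10 genes of Toll-like receptor signalling, 1 fell and 0 rose, Map3k7, the kinase Tak1, with a change of -0.68. The call of Map3k7 was lost in 5 settings, 3 of which left out GM 6 h replicate 1 or either 20 h array (changes of -0.77 to -0.53 there). Of 18 immediate early genes 1 rose, Klf4, and 1 fell, Nr4a2, an orphan nuclear receptor with signals of 22.0 and 23.7 at 20 h, against 70.9 and 54.0 at 6 h. The call of Nr4a2 was lost in 6 settings, 4 of them the omission of any one array (changes of -1.16 to -0.85 there).

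Feedback inhibitors divided. Of 25 measured members 4 rose and 5 fell, against 10.5% and 8.62% of all genes, with a median of -0.03. Dusp6, a phosphatase of the kinase ERK, read 819 and 901 at 20 h, against 294 and 116 at 6 h, a change of 2.11 ± 0.32. Il1r2, a decoy receptor for interleukin-1, read 264 and 348 at 20 h, against 92.2 and 84.6 at 6 h, and Atf3, a stress-induced repressor of cytokine genes, read 7657 and 7765 at 20 h, against 3667 and 3232 at 6 h. Gadd45g completed the 4, all of which kept their call in every setting. On the falling side, Tnfaip3, which encodes the ubiquitin-editing inhibitor A20 of NF-κB, read 61.8 and 67.6 at 20 h, against 293 and 235 at 6 h, a change of -1.79 ± 0.36, and Il1rn, the interleukin-1 receptor antagonist, read 5554 and 5384 at 20 h, against 11864 and 8829.7 at 6 h but lost its call in a fit of the 4 arrays alone. Socs1, the inhibitor of interferon receptor kinases, did not pass and stayed bright at 3946 and 3899 at 20 h, against 3564 and 2539 at 6 h. The number that fell was 3 without GM 6 h replicate 1 or without GM 20 h replicate 1, and 2 in the fit of the 4 arrays alone.

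Among 27 cytokine receptors and JAK-STAT genes 4 rose and 2 fell, against 10.5% and 8.62% of all genes, with a median of 0.28. Receptors made up 3 of the 4 that rose. Tnfrsf1b, a receptor of TNF, read 5884 and 6568 at 20 h, against 3328 and 2432 at 6 h, Il6ra, a receptor of interleukin-6, read 201 and 283 at 20 h, against 97.4 and 87.4 at 6 h, and Il4ra, the receptor chain for interleukin-4 and interleukin-13, read 1495 and 1612 at 20 h, against 721 and 503 at 6 h. The call of Il4ra was lost without GM 6 h replicate 2 (change 1.09 there). Signal transducers went both ways, since Jak2, a kinase of the GM-CSF and interferon-γ receptors, read 390.2 and 376 at 20 h, against 949 and 953 at 6 h, Stat5a, a factor activated by GM-CSF, read 370.2 and 409.8 at 20 h, against 946 and 981 at 6 h, and Jak1, a kinase of many cytokine receptors, read 797 and 671 at 20 h, against 425 and 512 at 6 h. The call of Jak1 was lost in 3 settings, 2 of which left out an array (GM 20 h replicate 1 or GM 6 h replicate 1), with values of 0.50 to 0.51. With the RNA quality covariate 8 members rose.

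**Figure D2:**
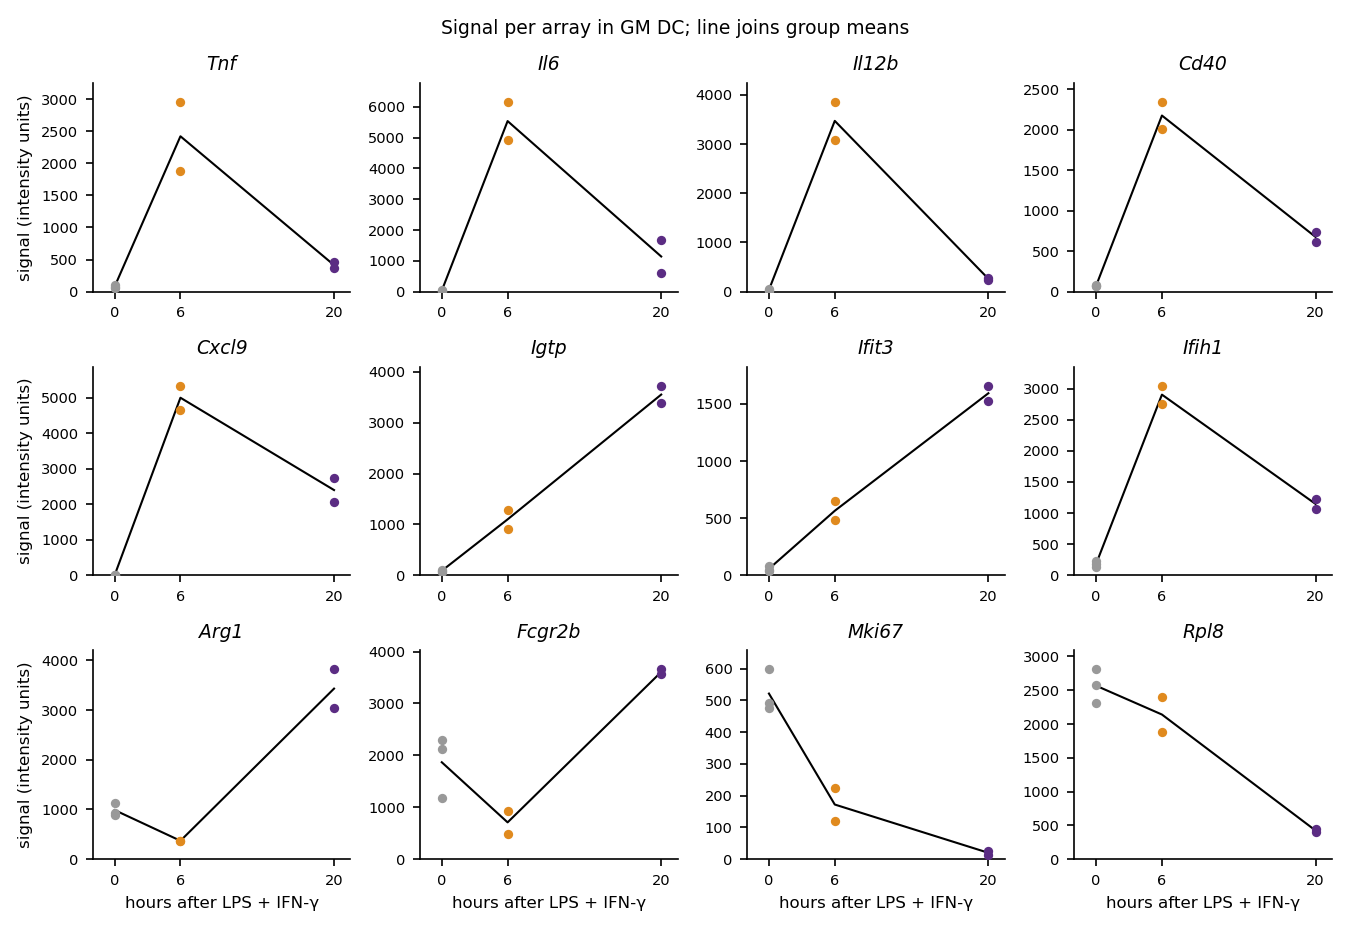
Signal of each GM array (vertical linear axis from 0, intensity units) at 0, 6 and 20 h (horizontal axis, to scale) for 12 genes; the line joins the group means. Tnf, Il6, Il12b, Cd40, Cxcl9 and Ifih1 peak at 6 h, Igtp and Ifit3 are highest at 20 h, Arg1 and Fcgr2b dip at 6 h, and Mki67 and Rpl8 are lowest at 20 h.

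Interferon-induced genes rose more often than they fell. Of 24 interferon-stimulated antiviral genes 5 rose and 2 fell, with a median of 0.23, and of 15 interferon-γ-induced GTPases and regulators 4 rose and 1 fell, with a median of 0.25. Both shares that rose exceed the 10.5% of all genes, but the count of antiviral genes that rose was 2 without GM 20 h replicate 1 and 3 without any other of the 4 arrays. Igtp and Irgm2, GTPases of the immunity-related family that regulate defence against intracellular microbes, kept their call in every setting. Igtp read 3726 and 3377 at 20 h, against 1292 and 908 at 6 h, a change of 1.70 ± 0.23, with a 0 h mean of 89.5. Irgm2 read 2017 and 2327 at 20 h, against 842 and 1019 at 6 h, a change of 1.21 ± 0.20, with a 0 h mean of 122. Ifit3, an antiviral protein, read 1659.7 and 1527 at 20 h, against 483 and 648 at 6 h, and Mx2, an antiviral GTPase, read 2039 and 1586 at 20 h, against 809.7 and 901 at 6 h. The call of Mx2 was lost without GM 20 h replicate 1 (change 0.88 there). Cmpk2, a mitochondrial nucleotide kinase, read 3497 and 2832 at 20 h, against 721 and 1368 at 6 h. The call of Cmpk2 was lost without GM 6 h replicate 1 (change 1.19 there). Ido1, which degrades tryptophan and restrains T cells, was dim, with 92.9 and 96.2 at 20 h, against 34.8 and 21.3 at 6 h. Ifih1, a sensor of viral RNA, went the other way with 1229.7 and 1064 at 20 h, against 2759 and 3046 at 6 h, a change of -1.33 ± 0.19, and Isg15, a ubiquitin-like modifier, did not pass and stayed at 5926 and 6029.9 at 20 h, against 7836 and 6501 at 6 h. Trim25, Irf7 and Irf1, which complete the 9 that rose, lost their call in 4, 7 and 4 settings, each without either 20 h array and without GM 6 h replicate 2, and Irf7 also without GM 6 h replicate 1, with changes of 0.49 to 0.79 for Trim25, 0.54 to 0.90 for Irf7 and 0.40 to 0.56 for Irf1.

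The promoters of the 9 genes of both lists that rose were searched in the same way, and 7 of them had an entry. The motif GAAANNGAAA, a core of interferon-stimulated response elements, was found on either strand in 3 of the 7 (Igtp, Irgm2 and Ifit3), in 3.04% of the 27025 promoters, in 2.1% of those of all genes that rose and in 2.97% of those of genes that fell. It overlapped no NF-κB-type match there. Members of the 2 lists that did not rise were not counted apart, so a link of this motif to the rise was not tested. Igtp and Irgm2, both on chromosome 11, hold nearly the same bases around the match, so their matches are not separate occurrences. Igtp and Ifit3 are shown, because both kept their call in every setting, with the matches in capitals. Ifit3 has 2 matches on the minus strand, and the match of Igtp ends 25 bases before the start site.
Igtp, chr11:58199306-58199555, plus strand: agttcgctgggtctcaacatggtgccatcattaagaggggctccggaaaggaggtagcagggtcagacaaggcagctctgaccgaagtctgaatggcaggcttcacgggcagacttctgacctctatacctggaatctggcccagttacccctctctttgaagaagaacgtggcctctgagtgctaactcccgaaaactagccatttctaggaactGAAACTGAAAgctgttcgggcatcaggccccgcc
Ifit3, chr19:34583279-34583528, plus strand: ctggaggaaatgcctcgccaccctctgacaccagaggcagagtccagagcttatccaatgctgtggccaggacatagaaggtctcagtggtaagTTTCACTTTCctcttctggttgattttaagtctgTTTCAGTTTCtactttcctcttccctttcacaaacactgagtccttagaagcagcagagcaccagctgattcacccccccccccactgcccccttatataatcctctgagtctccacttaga

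The arginases changed in opposite directions. Of 14 genes of nitric oxide and arginine metabolism 3 rose and 4 fell. Arg1 rose as given above, Arg2, the mitochondrial arginase, fell, with 140.5 and 119 at 20 h, against 382 and 283 at 6 h, and Gch1, which makes the cofactor of nitric oxide synthase, fell, with 177 and 145 at 20 h, against 398 and 419 at 6 h. Nos2, the inducible nitric oxide synthase, did not pass, with 666 and 767 at 20 h, against 1058 and 601 at 6 h, and its change of -0.16 ± 0.34 turned to 0.24 without GM 6 h replicate 1. Nos2 had averaged 10.7 at 0 h, so it remained high while Arg1 rose. Ass1, which regenerates arginine from citrulline, read 204 and 308 at 20 h, against 87.6 and 90.7 at 6 h. The call of Ass1 was lost without GM 20 h replicate 2 (change 1.07 there). Azin1, which keeps ornithine decarboxylase from being degraded, rose by 0.77, while Odc1, the decarboxylase itself, fell to 108 and 150.1 at 20 h, against 251 and 231 at 6 h. The call of Odc1 was lost without GM 20 h replicate 1 (change -0.63 there) and in the fit of the 4 arrays alone. In that fit of the 4 arrays alone 2 members fell.

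Of 21 genes of oxidative burst and antioxidant defence 5 rose and 4 fell. Slc11a1, a phagosomal metal transporter, read 746 and 669 at 20 h, against 265 and 229 at 6 h, and Ncf4, a subunit of the phagocyte oxidase, read 1410.0 and 1249 at 20 h, against 731 and 645 at 6 h, while Sod2, the mitochondrial superoxide dismutase, read 1414 and 1191 at 20 h, against 3034 and 2744 at 6 h. Hmox1, which degrades heme, read 8664 and 9707 at 20 h, against 6897 and 3671 at 6 h. The call of Hmox1 was lost in 4 settings, 3 of which left out GM 6 h replicate 2 (where the change was 0.41) or either 20 h array (changes of 0.41 to 0.95 there). The number that rose was 2 without GM 20 h replicate 1, and the number that fell was 1 without GM 6 h replicate 1 or without GM 20 h replicate 2. Of 17 acute phase and complement genes 4 rose and 3 fell, and 1 rose among those left by the filter on dim probe sets. Besides C3ar1, Orm1, an acute phase plasma protein, read 142 and 88.2 at 20 h, against 15.3 and 13.1 at 6 h, with a 0 h mean of 1.40. Besides Ptx3, Cfp, which stabilises the alternative complement convertase, read 382 and 383 at 20 h, against 1498 and 1039.7 at 6 h, and Fn1, fibronectin, read 185 and 195 at 20 h, against 629.7 and 478 at 6 h. Of 11 genes of prostaglandin and leukotriene synthesis 1 rose and 1 fell. Ptges, the inducible prostaglandin E synthase, read 2110.4 and 1902 at 20 h, against 823 and 665 at 6 h. The call of Ptges was lost in 4 settings that included the omission of either 20 h array or of GM 6 h replicate 2 (changes of 1.27 to 1.49 there). Ptger4, a receptor of prostaglandin E, read 175 and 146 at 20 h, against 430.1 and 686 at 6 h. Acod1, which makes itaconate, did not pass and was bright at both times (7116 and 6249 at 20 h, against 9178 and 8008 at 6 h).

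Receptors for uptake changed in both directions. Of 21 endocytic and phagocytic receptors 3 rose and 6 fell, against 10.5% and 8.62% of all genes. Their median was -0.36 (-0.17 without GM 6 h replicate 2 and -0.14 without GM 20 h replicate 2). Fcgr2b, the inhibitory Fc receptor, read 3558 and 3656 at 20 h, against 935 and 481 at 6 h, a change of 2.40 ± 0.47, and Stab1, a scavenger receptor, read 635 and 518 at 20 h, against 139 and 85.1 at 6 h, a change of 2.24 ± 0.25. Of the listed receptors Mrc1 and Clec4e, a receptor of mycobacterial glycolipids, fell most, Clec4e with 103 and 95.0 at 20 h, against 436 and 489 at 6 h. Itgax, the integrin Cd11c that defines DC in most panels, read 184 and 219 at 20 h, against 509 and 594 at 6 h, with a 0 h mean of 1153. Of 29 lysosomal genes 3 rose and 6 fell, against the same shares of all genes, with a median of 0.15. Ctsh, a cysteine protease, read 3895 and 3677 at 20 h, against 1039 and 946 at 6 h, a change of 1.92 ± 0.15, and Npc1, which exports cholesterol from lysosomes, read 731 and 692 at 20 h, against 278 and 265 at 6 h. Gusb, a glucuronidase, read 125 and 119 at 20 h, against 283 and 358 at 6 h, Cd63, a membrane protein of late endosomes, read 643 and 619.7 at 20 h, against 1647 and 1996 at 6 h, and Ctse, an aspartic protease of DC endosomes, read 117 and 129 at 20 h, against 386 and 428 at 6 h. After the filter on dim probe sets, 5 lysosomal genes rose.

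Of 21 matrix proteases, inhibitors and adhesion genes 5 rose and 7 fell, and 4 fell without GM 6 h replicate 2 or without GM 20 h replicate 2. Proteases of the matrix were found on both sides. Mmp9, a gelatinase, read 143 and 210.2 at 20 h, against 25.9 and 13.7 at 6 h, and Adam8, a membrane protease, read 5674 and 5722 at 20 h, against 1737 and 1414 at 6 h, whereas Mmp13 fell. Tgfbi, a matrix protein induced by TGF-β, read 879 and 1000.4 at 20 h, against 169.6 and 352 at 6 h. Inhba, the subunit of activin A, read 593 and 647 at 20 h, against 1755 and 1899 at 6 h, and it fell together with Fst, the blocker of activin.

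**Figure D3:**
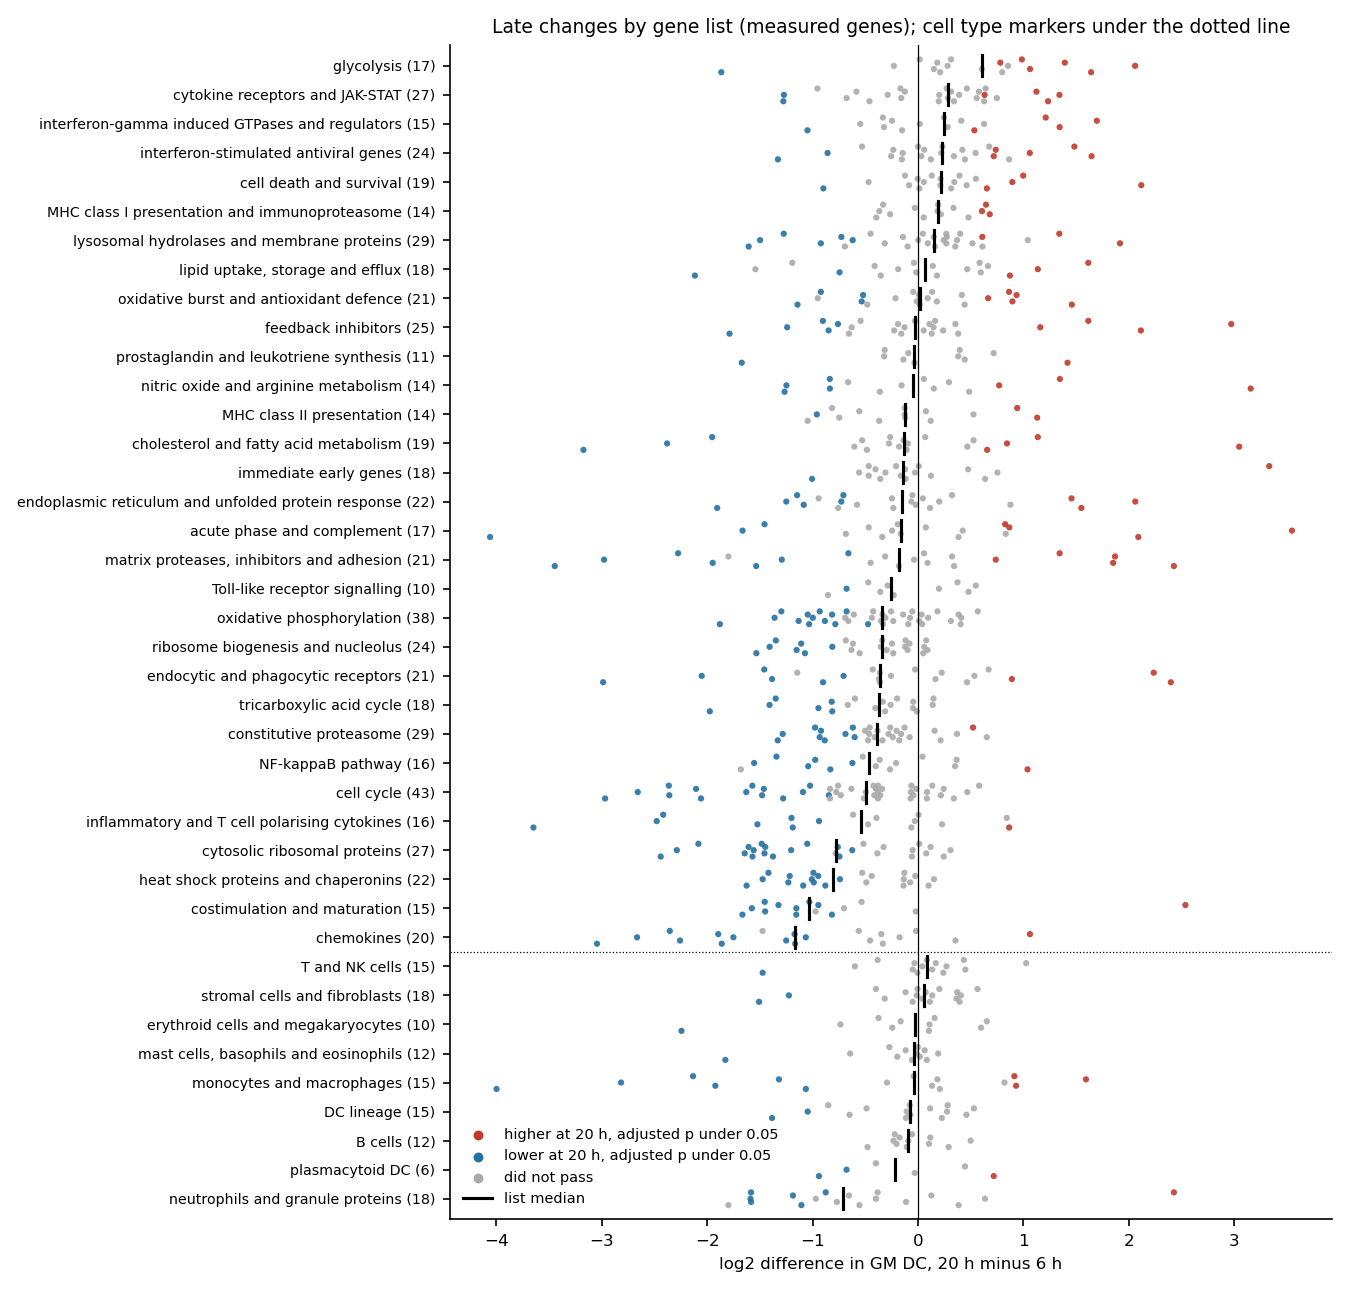
Log2 difference, 20 h minus 6 h, of each measured gene (points) in the 31 pathway lists and, under the dotted line, the 9 lists of cell type markers in GM DC, with the number of measured genes in brackets and the median as a bar. Red points rose and blue points fell at an adjusted p under 0.05; with all 4 arrays chemokines have the lowest median of the pathway lists, -1.17, and glycolysis the highest, 0.61.

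In metabolism, 6 of 17 genes of the glycolysis list rose and 1 fell, with a median of 0.61. That median was the highest of the pathway lists with all 4 arrays, but it was 0.27 without GM 6 h replicate 2, where those of cell death and survival (0.37) and of interferon-γ-induced genes (0.34) were higher, and 0.91 without GM 6 h replicate 1. The members that rose most are not enzymes of glycolysis. Vegfa, an angiogenic growth factor, read 1761 and 1378 at 20 h, against 677 and 189.7 at 6 h, Bnip3, a protein of mitochondrial clearance, read 1143 and 1082 at 20 h, against 583 and 292 at 6 h, and Slc2a1, the glucose transporter, read 2266 and 2129 at 20 h, against 1109.6 and 430.4 at 6 h. Each is known as a target of hypoxia-inducible factors. Pkm, the pyruvate kinase, read 5403 and 5387 at 20 h, against 3436 and 2858 at 6 h and passed in all settings but the fit of the 4 arrays alone. In Vegfa, Bnip3 and Slc2a1 the 6 h arrays differed widely, with replicate 2 the lower, and each lost its call without it, with changes of 1.18 to 2.23 for Vegfa, 0.91 to 1.43 for Bnip3 and 0.97 to 1.60 for Slc2a1 over the omissions that ended the call. Without GM 6 h replicate 2, 1 gene of the list rose, as also without GM 20 h replicate 1. Without GM 20 h replicate 2, 2 rose, and 3 rose in the fit of the 4 arrays alone. Hk1, the constitutive hexokinase, read 541 and 274 at 20 h, against 1204 and 1746 at 6 h, a change of -1.87 ± 0.32.

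Some of the mitochondrial energy genes fell. Of 38 genes of oxidative phosphorylation 13 fell and 0 rose, with a median of -0.34, and 8 fell without GM 20 h replicate 2, while 1 rose without GM 6 h replicate 2. Cycs, cytochrome c, read 45.8 and 41.6 at 20 h, against 188 and 219.8 at 6 h, a change of -1.88 ± 0.26. Cox5b, a subunit of the oxidase, read 275 and 258 at 20 h, against 685 and 735 at 6 h, and Uqcrq, of the complex that feeds it, read 756 and 642 at 20 h, against 1539 and 1956 at 6 h. Of 18 genes of the tricarboxylic acid cycle 6 fell and 0 rose, with a median of -0.37, and 3 fell without GM 20 h replicate 1. Cs, citrate synthase, read 314 and 311 at 20 h, against 539 and 585 at 6 h, and Idh3g, a subunit of the isocitrate dehydrogenase of the cycle, read 72.8 and 57.1 at 20 h, against 167 and 235 at 6 h, while Idh2 was near the noise at 20 h (5.21 and 5.36 at 20 h, against 47.9 and 93.7 at 6 h).

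Lipid genes divided. Of 19 genes of cholesterol and fatty acid metabolism 4 rose and 3 fell, against 10.5% and 8.62% of all genes. Besides Scd2, the members that rose were Sc5d (1.14) and Msmo1 (0.84), enzymes of sterol synthesis, and Srebf1 (0.66). The calls of these were lost in 3 to 5 settings. Idi1 and Fdps, successive steps towards cholesterol, fell, Fdps with 46.6 and 48.5 at 20 h, against 221 and 239 at 6 h. Ch25h, which makes 25-hydroxycholesterol, an antiviral oxysterol, read 208 and 157 at 20 h, against 723 and 1404 at 6 h, with a 0 h mean of 34.7. Without GM 6 h replicate 2, 1 member rose, and 2 rose without either 20 h array. Of 18 genes of lipid uptake, storage and efflux 3 rose and 2 fell, against the same shares of all genes. Cpt1a, the entry step of fatty acid oxidation in mitochondria, read 975 and 899 at 20 h, against 336 and 518 at 6 h, and Acadm, a dehydrogenase of that pathway, read 377 and 326 at 20 h, against 94.1 and 114 at 6 h, both higher at 20 h in all settings. Lpl, the lipoprotein lipase, read 523 and 476 at 20 h, against 1764 and 2786 at 6 h, a change of -2.12 ± 0.21.

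Some genes of cell growth and division fell. Of 43 cell cycle genes 14 fell and 0 rose, with a median of -0.49 (-0.81 without GM 6 h replicate 1). Mki67, a marker of proliferating cells, read 13.1 and 26.5 at 20 h, against 119.5 and 224 at 6 h, Cdk1, the mitotic kinase, read 3.74 and 5.54 at 20 h, against 54.7 and 143 at 6 h, and Cks1b, its regulatory partner, read 4.85 and 7.83 at 20 h, against 96.7 and 159.7 at 6 h. All 3 had been higher at 0 h, with means of 522, 333 and 405, so the signal at 6 h already lay under that at 0 h. Ccnd2, a cyclin of the early cycle, differed from these by its low 0 h mean of 102, and read 262 and 399.6 at 20 h, against 941 and 1138 at 6 h. The count that fell was 7 without GM 6 h replicate 2, where 1 rose, 8 without GM 20 h replicate 1, and 9 with an offset of 64 or in the fit of the 4 arrays alone.

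Cytosolic ribosomal proteins gave the largest count. Of 27 measured 16 fell and 0 rose, with a median of -0.78, and 13 of the 16 kept their call in every setting. Rpl10a read 317 and 258 at 20 h, against 1613 and 1636 at 6 h, a change of -2.44 ± 0.26, Rpl8 read 449 and 397 at 20 h, against 1878 and 2403 at 6 h, a change of -2.29 ± 0.18, and Rps19 read 381 and 273 at 20 h, against 1272 and 1583 at 6 h, a change of -2.08 ± 0.24. Rplp0 read 3688 and 3207 at 20 h, against 6159 and 5417 at 6 h, a change of -0.75 ± 0.18. The call of Rplp0 was lost in 3 settings that included the omission of GM 20 h replicate 2 or GM 6 h replicate 1 (changes of -0.65 there). Rps4x fell by 1.56, but another of its probe sets passed in the opposite direction. Ribosomal protein probe sets can match processed pseudogenes, so single genes of this list are uncertain. Of 24 genes of ribosome biogenesis and the nucleolus 7 fell and 0 rose, with a median of -0.35. Npm1, nucleophosmin, read 281 and 214 at 20 h, against 556 and 823 at 6 h, and Rrs1, a ribosome assembly factor, read 24.7 and 15.7 at 20 h, against 98.8 and 78.4 at 6 h.

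Several chaperones also fell. Of 22 heat shock proteins and chaperonins 12 fell and 0 rose, with a median of -0.81. Cct5, a subunit of the cytosolic chaperonin, read 116 and 108 at 20 h, against 311 and 464 at 6 h, Hspe1, the mitochondrial co-chaperonin, read 309 and 255 at 20 h, against 668 and 904 at 6 h, and Hspa8, the constitutive Hsc70, read 1097 and 1108 at 20 h, against 2559 and 1907 at 6 h. Of 22 genes of the endoplasmic reticulum and unfolded protein response 3 rose and 6 fell. Atf4 and Ddit3, transcription factors of the integrated stress response, rose, Atf4 with 3515 and 3779 at 20 h, against 1132 and 1536 at 6 h and Ddit3 with 391 and 416 at 20 h, against 129.8 and 125 at 6 h. Hspa5, the main chaperone of the reticulum, and Sec61b, a subunit of its translocation channel, fell, Hspa5 with 2148 and 1667 at 20 h, against 3845 and 4223 at 6 h and Sec61b with 251 and 165 at 20 h, against 816 and 798 at 6 h. Of 29 genes of the constitutive proteasome 9 fell and 1 rose, with a median of -0.38, and 5 fell without GM 20 h replicate 2 or in the fit of the 4 arrays alone. Psmb6, a catalytic subunit that the immunoproteasome replaces, read 294 and 288 at 20 h, against 1025 and 557 at 6 h. Of 19 genes of cell death and survival 4 rose and 1 fell. Casp6, an executioner caspase, read 110.1 and 108 at 20 h, against 10.8 and 15.0 at 6 h, Bcl2l11, the death protein Bim, read 599 and 643 at 20 h, against 271 and 338 at 6 h, and Mcl1, a survival protein, read 2089.7 and 1897 at 20 h, against 1225 and 923 at 6 h.

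Markers checked the cell type named by the labels. Of 15 markers of the DC lineage 2 fell and 0 rose, Itgax and Irf4, and their summed signal was 9699 to 10703 at 20 h, against 11465 to 13562 at 6 h. Of the 13 that did not pass, Spi1, Id2, Sirpa and Flt3, factors and receptors of the lineage, had mean signals of 969, 4558, 1449 and 162 at 20 h. Itgax fell as given above. The list also holds 2 markers with a mean signal below 16 at both times. Irf4, a factor of one DC subset, had a change of -1.05. The call of Irf4 was lost in 6 settings, among them the omission of GM 20 h replicate 2 or of either 6 h array (changes of -1.10 to -0.64 there). Zbtb46, a factor specific to classical DC, was dim, with means of 46.8 at 20 h and 97.6 at 6 h. Of 15 markers of monocytes and macrophages 3 rose and 6 fell, and their summed signal was 18014 to 19616 at 20 h, against 17901 to 24516 at 6 h. Vcam1 and C1qb, given above among the largest falls, belong to this list. C1qa (-2.13), C1qc (-1.32) and Lyz2 (-1.06) also fell, with calls lost in 2, 1 and 1 settings. Ccr1 (1.59) and Csf1r (0.91) rose, with calls lost in 2 and 4 settings. Cebpa, a myeloid transcription factor, rose by 0.93. Ccr2, the receptor of inflammatory monocytes, read 27.9 and 34.6 at 20 h, against 143 and 185 at 6 h, with a 0 h mean of 706. Without GM 6 h replicate 2 or without GM 20 h replicate 1, 1 of these markers rose. Adgre1, the macrophage marker F4/80, did not pass in the fit reported here (539.8 and 442 at 20 h, against 303 and 240.3 at 6 h) but passed as higher in 4 other settings.

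Several granule proteins of neutrophils fell. Of 18 measured markers 6 fell and 1, Mmp9, rose, with a median of -0.71, and the summed signal was 4766 to 5906 at 20 h, against 8420 to 11545 at 6 h and 10374 to 10701 at 0 h. S100a8, a calcium-binding alarmin, read 634 and 820.5 at 20 h, against 1804 and 2689 at 6 h, Camp, the cathelicidin, read 360.1 and 726 at 20 h, against 1333 and 1846 at 6 h, and Ngp, neutrophilic granule protein, read 285 and 319 at 20 h, against 648 and 1348 at 6 h. The count was 3 without GM 6 h replicate 2. The part of a smaller share of granulocytes in the other falls was not tested. Markers of other cell types were checked in the same way. Of 12 B cell markers 0 passed (sum 405 to 439 at 20 h, 422 to 479 at 6 h). Of 15 T and NK cell markers 1 fell and 0 rose (sum 328 to 400 at 20 h, 278 to 332 at 6 h), with 7 below a mean of 16 at both times. The 1 was Cd247, which read 9.60 and 6.12 at 20 h, against 61.5 and 40.4 at 6 h. The call of Cd247 was lost without GM 6 h replicate 1 (change -1.24 there). Of 12 markers of mast cells, basophils and eosinophils 1 fell (sum 335 to 346 at 20 h, 563 to 611 at 6 h), Hdc, which makes histamine and which had averaged 9.04 at 0 h, with 70.8 and 73.8 at 20 h, against 271 and 326 at 6 h. Of 10 erythroid and megakaryocyte markers 1 fell (sum 614 to 663 at 20 h, 1032 to 1052 at 6 h), Car2, a carbonic anhydrase, with 104 and 110.2 at 20 h, against 574 and 562 at 6 h. Of 6 plasmacytoid DC markers 1 rose and 2 fell (sum 3349 to 3477 at 20 h, 2690 to 2995 at 6 h), and all 3 calls (Irf7, Ly6d and Tcf4) were lost in 6 to 8 settings, each without either 20 h array and without GM 6 h replicate 2, and Irf7 also without GM 6 h replicate 1, with changes of 0.54 to 0.90 for Irf7, -1.13 to -0.67 for Ly6d and -0.72 to -0.52 for Tcf4. Of 18 stromal markers 2 fell (sum 1788 to 1863 at 20 h, 1565 to 1967 at 6 h), Col3a1 and Acta2, with mean signals of 7.35 and 4.38 at 20 h, against 38.4 and 42.1 at 6 h. Col3a1 lost its call without any one of the 4 arrays (changes of -1.36 to -1.09 there), and Acta2 without GM 20 h replicate 2 or GM 6 h replicate 2 (changes of -1.45 to -1.40 there).

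The late change in GM4 DC was measured on 5 other arrays, which enter the GM comparison only through the shared estimate of the spread. There 706 probe sets rose (5.68%) and 746 fell (6.01%), together 11.7%, or 570 genes that rose (6.91%) and 578 that fell (7.01%). Of the genes that rose in GM DC 41.5% also rose in GM4 DC, which is 63.3% of those that rose in GM4 DC, and 361 genes were shared. Of the genes that fell in GM DC 52.7% also fell in GM4 DC, 64.9% of those that fell there, and 375 genes were shared. Opposite calls were made for 6 genes. Over 8251 genes the changes correlated with r of 0.689 (Spearman 0.597), a description across genes that are not independent. Same-numbered arrays of the cultures also shared deviations from their group means, with r of 0.296 at 20 h and 0.279 and 0.181 at 6 h. The part of these shared deviations in the agreement was not tested. In GM4 DC Il12b fell by 2.02, Ptx3 by 2.55 and Stmn1 by 2.89, and C3ar1 rose by 3.13 and Klf4 by 3.01. These changes in GM4 DC were tested in the main fit only. Tnf and Il6 did not pass there, with changes of -0.39 and -0.59, and their difference between the cultures did not pass either (adjusted p = 0.0793 and 0.0925).

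**Figure D4:**
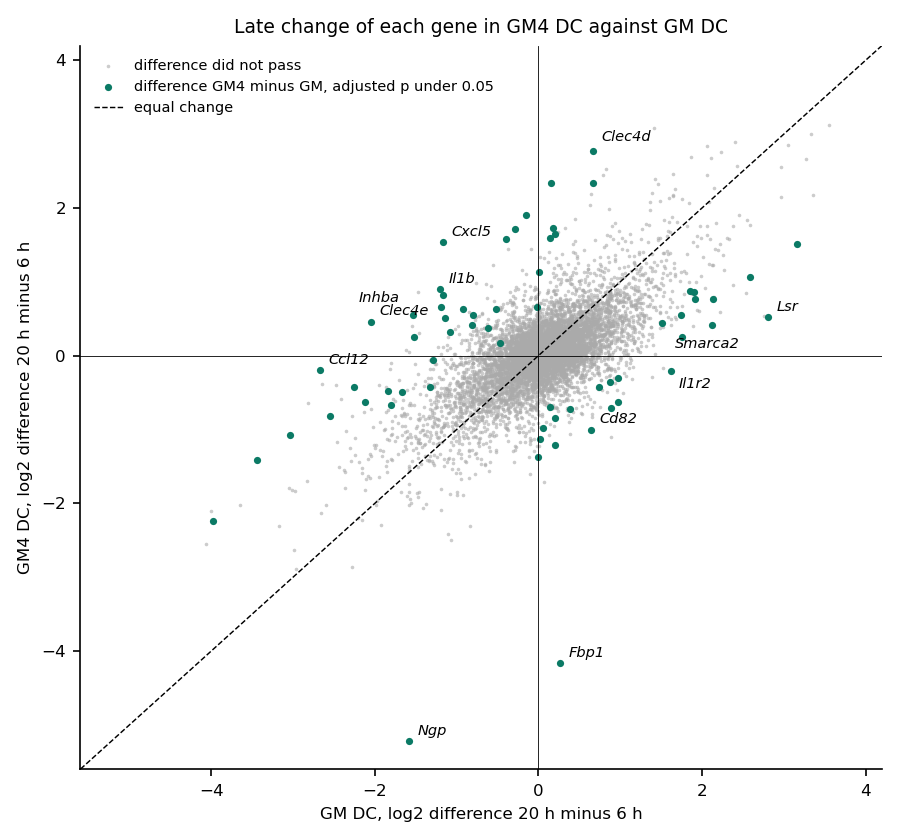
Log2 difference, 20 h minus 6 h, of 8251 genes in GM4 DC (vertical axis) against GM DC (horizontal axis). Green points mark the 65 genes whose late change differed at an adjusted p under 0.05, the 12 ranked ones are named, and the dashed line marks equal change.

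The difference of the late changes, GM4 minus GM, was tested for each gene. It passed for 53 probe sets that were more positive in GM4 DC and 30 that were more negative, 0.668% of those tested. Over genes it passed for 38 and 27 genes (0.461% and 0.327%, together 0.788%). These counts were small and unsteady, from 3 (without GM 20 h replicate 2) to 80 (without GM 6 h replicate 2) more positive probe sets, and from 2 (without GM4 20 h replicate 2) to 33 (without GM 6 h replicate 2) more negative ones, when 1 array was left out. Of the 12 genes named by rank, 11 lost their call in at least 1 setting that left out an array. Ngp did not lose it in any of 19 settings. It read 28.8 and 15.9 at 20 h, against 1425, 1204 and 1576 at 6 h, in GM4 DC, and 285 and 319 at 20 h, against 648 and 1348 at 6 h, in GM DC, a difference of -3.64 ± 0.43 (adjusted p = 0.00438). The granule protein thus fell in both cultures and further in GM4 DC.

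Among the other genes more negative in GM4 DC, Fbp1, a gluconeogenic enzyme, had a difference of -4.44 ± 0.68. It read 3.02 and 3.48 at 20 h, against 626, 236 and 239 at 6 h, in GM4 DC, and 3.02 and 15.7 at 20 h, against 5.37 and 3.43 at 6 h, in GM DC, so that the change lay in GM4 DC, and the GM values were in the noise. Its call was lost with an offset of 64 and in 3 of 9 omissions of an array, GM 20 h replicate 2 or either GM4 20 h array, with differences of -4.45 to -4.07. Lsr read 80.2 and 69.7 at 20 h, against 60.9, 43.5 and 39.6 at 6 h, in GM4 DC, and 282 and 277 at 20 h, against 43.8 and 13.7 at 6 h, in GM DC, a difference of -2.29 ± 0.38. Il1r2 read 81.9 and 74.9 at 20 h, against 142, 69.2 and 81.0 at 6 h, in GM4 DC, and 264 and 348 at 20 h, against 92.2 and 84.6 at 6 h, in GM DC, a difference of -1.83 ± 0.36, and Smarca2, an ATPase of chromatin remodelling, read 114 and 147 at 20 h, against 76.1, 91.5 and 115 at 6 h, in GM4 DC, and 161 and 211 at 20 h, against 30.5 and 29.6 at 6 h, in GM DC, a difference of -1.70 ± 0.32. The late change of these 3 genes passed in GM DC and did not pass in GM4 DC. Their difference was lost in 5, 10 and 10 of the 19 settings. The omissions among these were any of the 4 arrays at 20 h for Lsr (-2.37 to -2.21), any array but GM4 6 h replicates 1 and 2 for Il1r2 (-2.02 to -1.64), and any but GM4 6 h replicate 1 for Smarca2 (-1.88 to -1.52). Cd82, a tetraspanin, read 516 and 673 at 20 h, against 1310.3, 1079 and 1214 at 6 h, in GM4 DC, and 676 and 699 at 20 h, against 347 and 540.1 at 6 h, in GM DC, higher at 20 h in GM DC and lower at 20 h in GM4 DC, with a difference of -1.65 ± 0.28. It was lost in 7, among them the omission of any GM array but 6 h replicate 2, of either GM4 20 h array or of GM4 6 h replicate 3 (-1.84 to -1.34). Its change in GM DC alone lost its call in 8 of 14 settings, 3 of which left out GM 6 h replicate 1 or either 20 h array (changes of 0.34 to 0.67 there).

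Among the genes more positive in GM4 DC were cytokines, chemokines and lectin receptors. Clec4e had a difference of 2.51 ± 0.35, with 118 and 144 at 20 h, against 110.2, 99.0 and 67.1 at 6 h, in GM4 DC, and 103 and 95.0 at 20 h, against 436 and 489 at 6 h, in GM DC. Its call was lost when replicate 2 at 20 h of either culture was left out (2.38 to 2.46). Its neighbour in function Clec4d, which pairs with it, read 939 and 1101 at 20 h, against 105, 198 and 118 at 6 h, in GM4 DC, and 1656 and 1559.8 at 20 h, against 1046 and 964 at 6 h, in GM DC, a difference of 2.10 ± 0.32. Its call was lost without either GM4 20 h array, GM 20 h replicate 2 or GM 6 h replicate 1 (1.99 to 2.21). Il1b read 2954 and 3413 at 20 h, against 2237, 1402 and 1539 at 6 h, in GM4 DC, and 3723 and 2829 at 20 h, against 9107 and 6140.3 at 6 h, in GM DC, a difference of 2.10 ± 0.42, so that the cultures overlapped at 20 h and did not at 6 h. Inhba read 725 and 827 at 20 h, against 764, 539 and 345 at 6 h, in GM4 DC, and 593 and 647 at 20 h, against 1755 and 1899 at 6 h, in GM DC, a difference of 2.09 ± 0.37. Ccl12 read 203 and 154 at 20 h, against 174, 335 and 147 at 6 h, in GM4 DC, and 7.74 and 7.60 at 20 h, against 117 and 153 at 6 h, in GM DC, a difference of 2.47 ± 0.50, and Cxcl5, a neutrophil attractant, read 125 and 292 at 20 h, against 51.7, 52.6 and 63.3 at 6 h, in GM4 DC, and 25.5 and 30.3 at 20 h, against 75.6 and 90.3 at 6 h, in GM DC, a difference of 2.71 ± 0.51. These 4 lost their call in 8 to 12 of 19 settings. The omissions that ended it were any array but GM 6 h replicate 2 and GM4 6 h replicate 1 for Il1b (1.82 to 2.30), any but GM4 6 h replicates 1 and 3 for Inhba (1.99 to 2.18), any but GM4 6 h replicate 2 for Ccl12 (2.25 to 2.65), and any but GM4 20 h replicate 1 for Cxcl5 (2.15 to 2.82). Of 16 cytokines the difference was more positive for 4 and more negative for 0, and of 20 chemokines likewise for 4 and 0, against 0.461% of all genes. Both lists were chosen with earlier results of these data known, so these counts are a description and not a test.

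**Figure D5:**
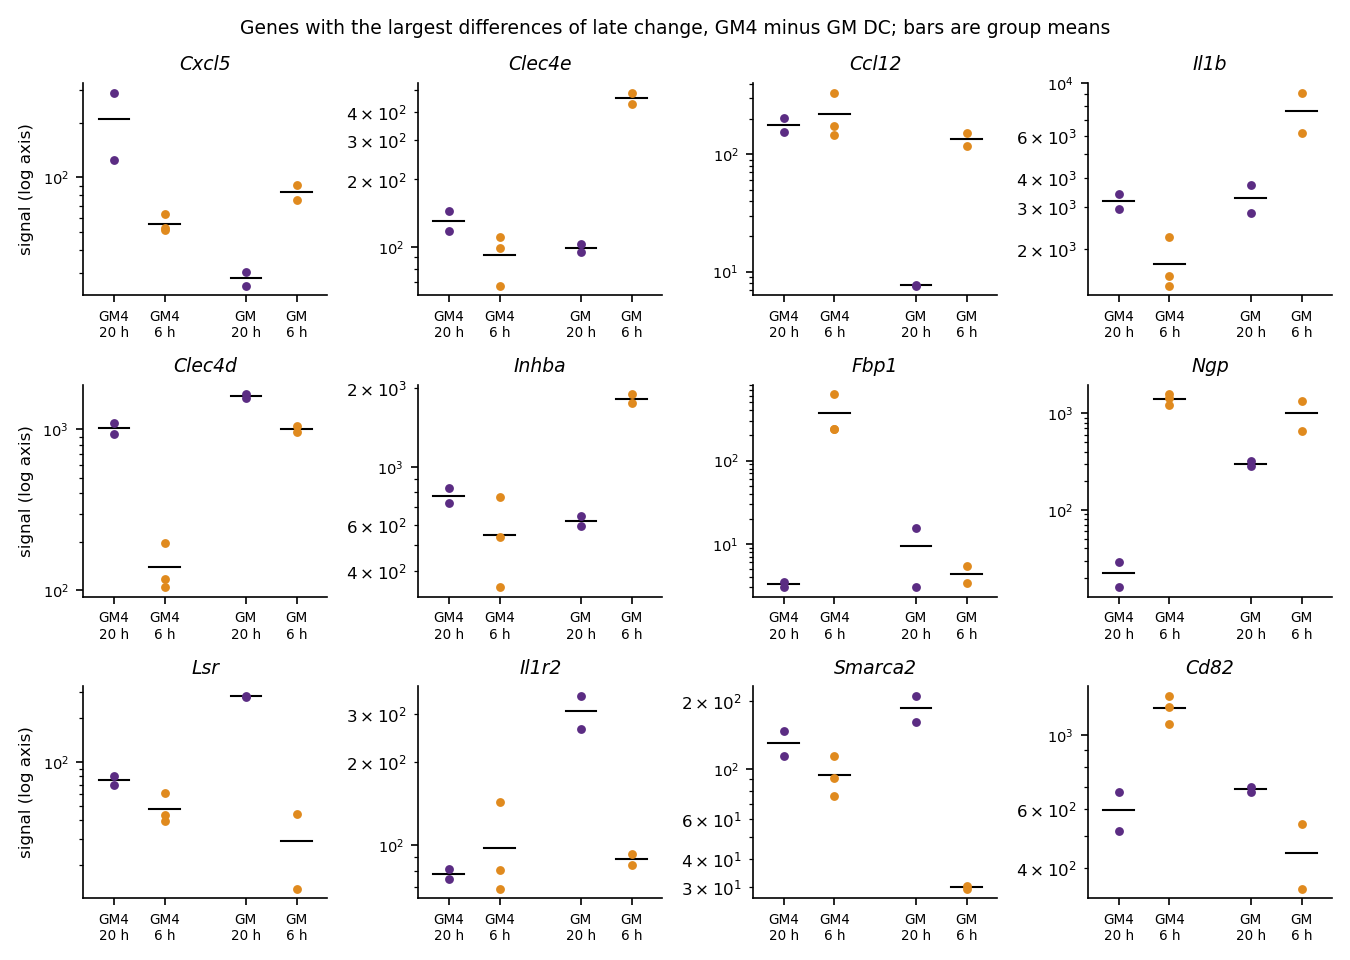
Signal of each array (vertical log axis, intensity units) in GM4 DC at 20 h and 6 h and in GM DC at 20 h and 6 h for the 12 genes with the largest differences of late change; bars are group means, purple is 20 h and orange 6 h. Ngp and Fbp1 are lower at 20 h than at 6 h in GM4 DC by the widest margins of the 12, while Cxcl5, Clec4e, Il1b, Inhba and Ccl12 are lower at 20 h without overlap in GM DC.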

How the data were processed

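RNA of each culture was hybridised to 1 Affymetrix MG-U74Av2 mouse array, and the values are the probe set intensity that the authors deposited. MAS5, the manufacturer's signal algorithm, is named in the submitters' processing notes, and no source used here gives its version. The scale is linear and each array had been scaled to a like trimmed mean. Arrays carry no read depth, so their number limits the precision.

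Of 12488 probe sets 66 controls were set aside. For the rest log2(signal + 16) was fitted with limma 3.58.1 in R 4.3.3 as 6 group means over all 15 arrays, which share 1 estimate of the spread (9 residual degrees of freedom), with an intensity trend in the empirical Bayes step. The adjusted p is Benjamini-Hochberg over 12422 probe sets. A probe set was named through the platform annotation and its Entrez number: 10833 have 1 symbol, 396 several and 1193 none, and 10817 matched the RefSeq table. A gene is its probe set with the highest mean. Named are the 15 largest rises and falls among genes that passed, had no overlap and reached a mean signal of 100 in the higher group, the members of 40 lists (31 of pathways and 9 of cell type markers), and the 6 largest differences each way. The members and lists were chosen with earlier results of these data known.

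Replicate numbers come from the labels. Over 33 same-numbered pairs the correlation of deviations ran from 0.0026 to 0.332, with 0.0223 for the GM pair of times, and 17 exceeded 0.1. Since not every pair did, the numbers were not taken to pair samples. Deviations of the arrays in a group of 2 are exact opposites, so these pairs are not all separate values. P-values measure the spread between these samples. Tested on simulated data in which 200 of 12422 probe sets were changed, the GM comparison recovered 55% of changes of 1 and 99% of changes of 2 on the log2 scale, and 6.10% of calls were false. The simulated noise was independent between arrays, and fewer probe sets were changed than passed in the data. These rates therefore need not hold for the data.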

Additional observations from a re-analysis of the deposited data

Results flagged for a closer look

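For 32 named genes the late change differed between the cultures by a test of the difference itself (limma, adjusted p under 0.05), and 2 of these, Ngp and Il1a, kept the call in every one of 19 settings. Values are differences of log2 changes, GM4 minus GM DC. Ngp, a granule protein of neutrophils, had -3.64. Il1a, the cell-associated interleukin-1, had 1.97. All other genes below lost their call in 2 or more settings, at least 1 of which left out an array.

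Cytokines, chemokines and lectin receptors were among those more positive in GM4 DC. Among cytokines Il1b had 2.10, Csf3, the granulocyte growth factor, 1.85, and Il12a 1.77. Among chemokines Cxcl5 had 2.71, Ccl12 2.47, Cxcl2 1.99 and Cxcl1 1.83. The lectin receptors Clec4e and Clec4d had 2.51 and 2.10. Inhba and Fst, activin subunit and activin blocker, had 2.09 and 2.03.

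Of 21 measured genes of oxidative burst and antioxidant defence, 5 passed as more positive, against 0.461% of all genes. This list too was chosen with earlier results of these data known, so the count is a description. Sod2 had 1.66, Slc7a11, the cystine importer, 1.55, Srxn1, sulfiredoxin, 1.55, Gclm, which limits glutathione synthesis, 1.46, and Txnrd1, thioredoxin reductase, 1.16. Of the other genes Bckdhb had 1.96, S100a4 1.74, Abca1, the cholesterol exporter, 1.68, Lpl 1.48, Hspa5 1.40 and Hexa, a lysosomal hydrolase, 0.99.

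On the negative side, Fbp1 had -4.44, Lsr -2.29, Il1r2 -1.83, Smarca2 -1.70, Cd82 -1.65, Arg1 -1.64, H1f2 -1.51 and Ctsh -1.15. Arg1, H1f2 and Ctsh rose in both cultures and by less in GM4 DC.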

How the results depend on the processing

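With 2 arrays at each time the GM comparison rests on a spread shared with the other groups. The counts of probe sets that were higher and lower at 20 h in GM DC came to 589 and 609 in a fit of the 4 arrays alone, and to between 640 and 812 higher and between 602 and 820 lower when 1 array was left out. In GM4 DC the array weights gave 1104 higher, and leaving out 1 array gave 282 to 640 higher and 284 to 696 lower. For the difference, GM4 minus GM, 53 were more positive and 30 more negative. These became 32 and 18 with quantile normalization and 16 and 7 in a fit of the groups compared alone, 35 more positive without the intensity trend, 19 more negative with median centring, and 47 more negative with the filter at the 40th percentile. Leaving out 1 array gave 3 to 80 more positive and 2 to 33 more negative. With the replicate number as a block, 1252 rose and 1106 fell in GM DC, and the difference passed for 77 and 47. The labels share only a number, and 14 of 15 arrays correlated best with their own number, a hint from the data and not from the design. In a group of 2 arrays the deviations from the group mean are exact opposites, so the arrays are not separate pieces of evidence. With the RNA quality ratio as a covariate 1121 rose and 993 fell, and 51 differences were more negative. The change of Nos2, which did not pass, ran from -0.55 to 0.24 when 1 array was left out, and that of Fbp1 from -0.10 to 0.64. The causes were not tested. Among the 30 genes ranked by size, every call remained in every setting that gave a value. The median change of all probe sets was 0.0154 as deposited, 0.0095 after quantile normalization and 0.0043 after median centring. Dim genes are limited by the signal over background, and a fold of a gene whose later arrays lie below 16 has no firm size.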
